A study of Mus musculus with 14 samples.

Results

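The frontal cortex of newborn mice that lack exon 15 of Auts2 in the dorsal forebrain lineage was compared with that of wild type mice by RNA sequencing. The comparison rests on 8 of the 14 libraries of the series, 4 labelled wild type and 4 labelled Auts2 conditional knockout (cKO), chosen by their columns in the frontal cortex table. Both groups were of the C57BL6/J strain and were taken at postnatal day 0.5 from rostral cortex, as polyA RNA. The cKO animals carried Auts2 with exon 15 flanked by loxP sites on both alleles and a Cre recombinase expressed from Emx1. The wild type animals carried neither, so the floxed alleles, Cre and the loss of Auts2 cannot be told apart, and control animals with the floxed alleles alone or with Cre alone were not used here. The labels do not say whether the groups were littermates or how many animals each library holds, so p-values measure the spread between these libraries. The other 6 libraries of the series are pull-downs with an antibody against AUTS2, IgG controls and their input.

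AUTS2 is a nuclear protein of postmitotic neurons that joins forms of polycomb repressive complex 1 built on PCGF3 or PCGF5. With casein kinase 2 and the acetyltransferase p300 it turns these complexes, which usually silence genes, towards activation, and a cytoplasmic pool acts on Rac1 and the actin skeleton of growing axons and dendrites. The gene is associated with autism and intellectual disability and is strongly expressed in the developing frontal cortex. Emx1 is active in the progenitors of the dorsal telencephalon, so Emx1-Cre reaches cortical excitatory neurons and their glial relatives. Interneurons, microglia and vessels come from other lineages and keep an intact gene.

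The deleted piece is shown here because it defines the cKO allele. Counted along the transcript Auts2-207, the fifteenth exon lies on the minus strand of GRCm38 at chr5:131451884-131452025 and holds 142 bases, 1 more than a multiple of 3. It is coding in 4 annotated transcripts, Auts2-208, Auts2-209, Auts2-210 and Auts2-217. The labels give the exon number and not its position.
Auts2 exon 15: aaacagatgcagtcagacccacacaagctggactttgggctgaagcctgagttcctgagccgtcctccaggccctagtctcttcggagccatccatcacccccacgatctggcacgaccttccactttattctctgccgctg

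Values are FPKM, fragments scaled to transcript length and to the mapped total. The summed FPKM of a library ran from 330638 to 340979, and 60668 to 63043 transcripts stood above 0. Counts are not part of the tables used, and the depth behind these values is unknown. Across genes, which do not replicate each other, wild type 1 and 2 correlated at r = 0.9931, and with the remaining libraries at 0.9803 to 0.9866. cKO 1 reached at most 0.9864 with any library. Xist stood above 10 FPKM in wild type 2 and in cKO 1, 2 and 3. The cortical excitatory factors Neurod6 and Tbr1 were present in all 8 libraries, at 317 to 387 and 71.2 to 84.9 FPKM. They do not tell frontal from other cortex or show whether neighbouring tissue was included. In bulk RNA fewer cells of a type and less RNA per cell cannot be told apart.

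Of 12786 genes tested with limma on log2(FPKM + 1), 3 passed an adjusted p of 0.05 (0.0235% of genes): Ndn rose and Auts2 and S100a10 fell. An unadjusted p under 0.05 was found for 7.91% of genes, 4.57% higher and 3.34% lower in the cKO. Ndn encodes necdin, a MAGE family protein of postmitotic neurons whose paternal copy is the active one. Its level stood at 54.5, 55.2, 55.6 and 51.0 FPKM in wild type 1 to 4 and at 106, 89.7, 85.6 and 94.6 FPKM in cKO 1 to 4. The cKO libraries were all far above the wild type libraries, which lay close together (log2 fold change 0.78, SE 0.07, adjusted p = 0.00152, limma). In the gene test Ndn kept its call in every fit but the one without wild type 1 and 2, where its log2 fold change was 0.80 and its adjusted p 0.0567 (limma). S100a10 encodes p11, which binds annexin A2 and serotonin receptors. It stood at 67.6, 78.0, 82.6 and 69.6 FPKM in the wild type group against 51.9, 49.2, 50.4 and 51.3 FPKM in the cKO, again without overlap (log2 -0.54, SE 0.07, adjusted p = 0.0237, limma). The other 11 tested members of the S100 and annexin list had no unadjusted p under 0.05, among them S100a6 (log2 -0.20) and Anxa5 (0.14). The call of S100a10 was lost without wild type 2, wild type 3, cKO 2, cKO 3 or cKO 4, with adjusted p from 0.0856 to 0.176 and log2 from -0.55 to -0.49 (limma). It was lost too with the replicate block (0.0503), with Xist state as a covariate (0.103), with no trend (0.13) and with no filter (0.238). Without wild type 1 and 2 together the adjusted p was 0.209, and without wild type 1, wild type 2 and cKO 1 it was 0.0281 (limma).

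Auts2 fell in the cKO, and its transcripts stood at different percentages of the wild type level. The gene stood at 87.7, 92.2, 55.9 and 60.2 FPKM in the wild type group against 29.8, 35.2, 30.4 and 34.5 FPKM in the cKO group (log2 -1.13, SE 0.14, adjusted p = 0.0237, limma). Wild type 1 and 2 were the highest, and without both the log2 fold change was -0.82 (adjusted p = 0.0567, limma). Without wild type 1, wild type 2 and cKO 1 it was -0.78 (adjusted p = 0.0031, limma). Leaving out wild type 1, wild type 2 or any 1 of the cKO libraries also ended the call, with adjusted p from 0.0595 to 0.123 and log2 from -1.17 to -1.02 (limma). With Xist state as a covariate, no trend or no filter the adjusted p was 0.0706, 0.0798 and 0.238 (limma). The level therefore stood lower in the cKO with and without the libraries that stand apart, by less without them. The 5 transcripts that carried most of the RNA all contain exon 15. None of them passed the transcript test alone, and they are given as values.

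The long form Auts2-207 is the transcript along which the exon is counted and is annotated as a processed transcript of 7409 bases. It stood at 26.2, 27.5, 19.2 and 19.6 FPKM in the wild type group against 9.83, 13.4, 12 and 13.3 FPKM in the cKO, a mean level 52.5% of that in wild type. The coding Auts2-209 stood at 20.6, 21.7, 13.6 and 13.9 against 11.1, 7.44, 7.52 and 7.77 FPKM (48.4%). The coding Auts2-208 stood at 20.6, 23.4, 12.4 and 15.2 against 4.16, 6.30, 5.58 and 6.20 FPKM (31.1%). In none of these 3 did the groups overlap, and cKO 1 was the lowest cKO library for Auts2-207 and Auts2-208 and the highest for Auts2-209. The short coding Auts2-210, of 816 bases, stood at 8.16, 7.42, 3.66 and 5.04 against 0.786, 1.43, 0.634 and 1.17 FPKM (16.6%). Auts2-204 stood at 4.46 to 10.1 against 2.29 to 3.91 FPKM (40.9%), and here too the groups lay apart. Exon 15 makes up 17.4% of the length of Auts2-210 and 1.92% to 3.98% of the length of the other 4.

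As a share of the gene, Auts2-210 stood at 9.31%, 8.05%, 6.55% and 8.36% in wild type and at 2.64%, 4.07%, 2.09% and 3.4% in the cKO. The means were 8.07% ± 1.15 and 3.05% ± 0.868 (SD, n = 4 each; unadjusted p = 0.000247, adjusted p = 0.808, limma). Auts2-208 went from a mean of 24.1% to 17.1% without overlap, and Auts2-207 from 31.6% to 37.3% with overlap. These are estimates over whole annotated transcripts. They do not measure the reads of exon 15 or the share of RNA that kept it.

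**Figure D1:**
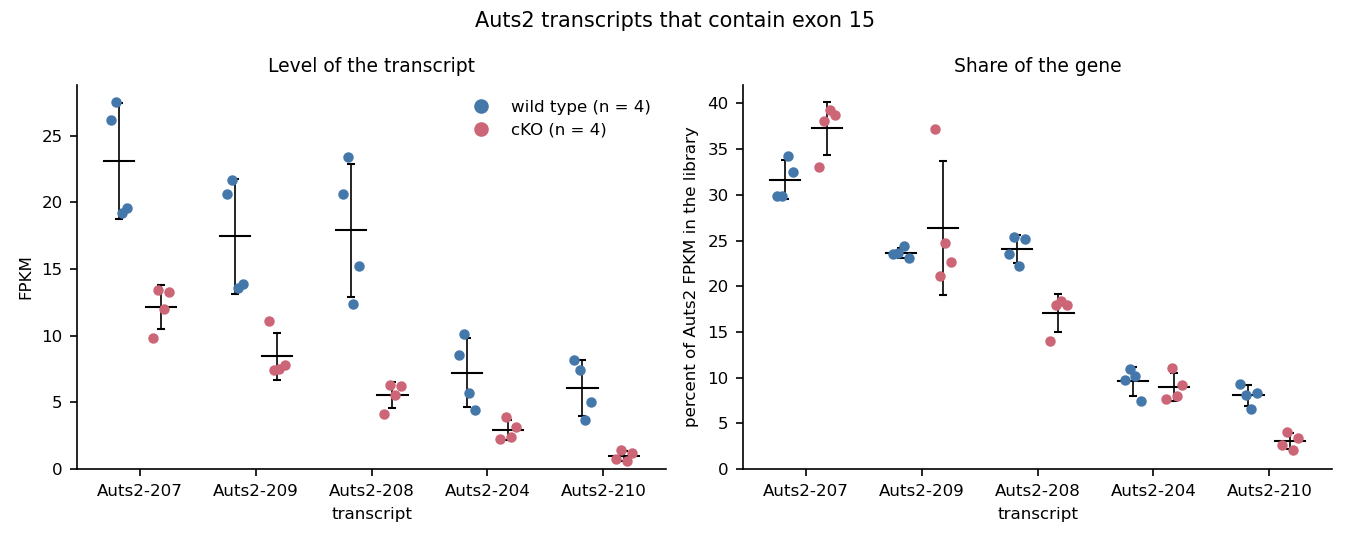
The 5 Auts2 transcripts with most of the RNA, each with 4 wild type and 4 cKO libraries as points, the mean as a line and the SD as a bar. The left axis is FPKM and the right axis is the percent of the gene's FPKM in the library. All 5 levels lie apart, with the cKO lower, and the shares of Auts2-208 and Auts2-210 separate the groups as well.

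Since few genes passed alone, lists of pathway and cell type genes were described by their counts. The list that stood out most by its share of small p-values was sterol synthesis, where 14 of 24 tested genes (58.3%) had an unadjusted p under 0.05 (limma), all higher in the cKO, against 4.57% of all genes. Neuropeptides (5 higher and 1 lower of 18), cortical area patterning factors (4 and 3 of 22), intermediate progenitor genes (1 and 3 of 13), deep-layer genes (4 and 2 of 20) and subplate and Cajal-Retzius genes (1 and 2 of 10) followed, in both directions. At the other end, 0 of 80 cytosolic ribosomal protein genes, 0 of 44 SR protein and hnRNP genes, 0 of 20 glycolysis genes, 0 of 14 microglia genes and 0 of 17 endothelial and pericyte genes had an unadjusted p under 0.05 (limma). A common direction was not particular to sterol genes: 76 of the 80 cytosolic ribosomal protein genes (median log2 0.055) and 76 of 78 oxidative phosphorylation genes (0.094, 6 with an unadjusted p under 0.05, limma) also stood higher. Without cKO 1 these were 17 of 80 (median -0.024) and 66 of 78 (0.044). With Xist state as a covariate they were 56 of 80 (0.013) and 75 of 78 (0.085). Beyond Ndn, Auts2 and S100a10 no listed gene passed the adjusted threshold.

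**Figure D2:**
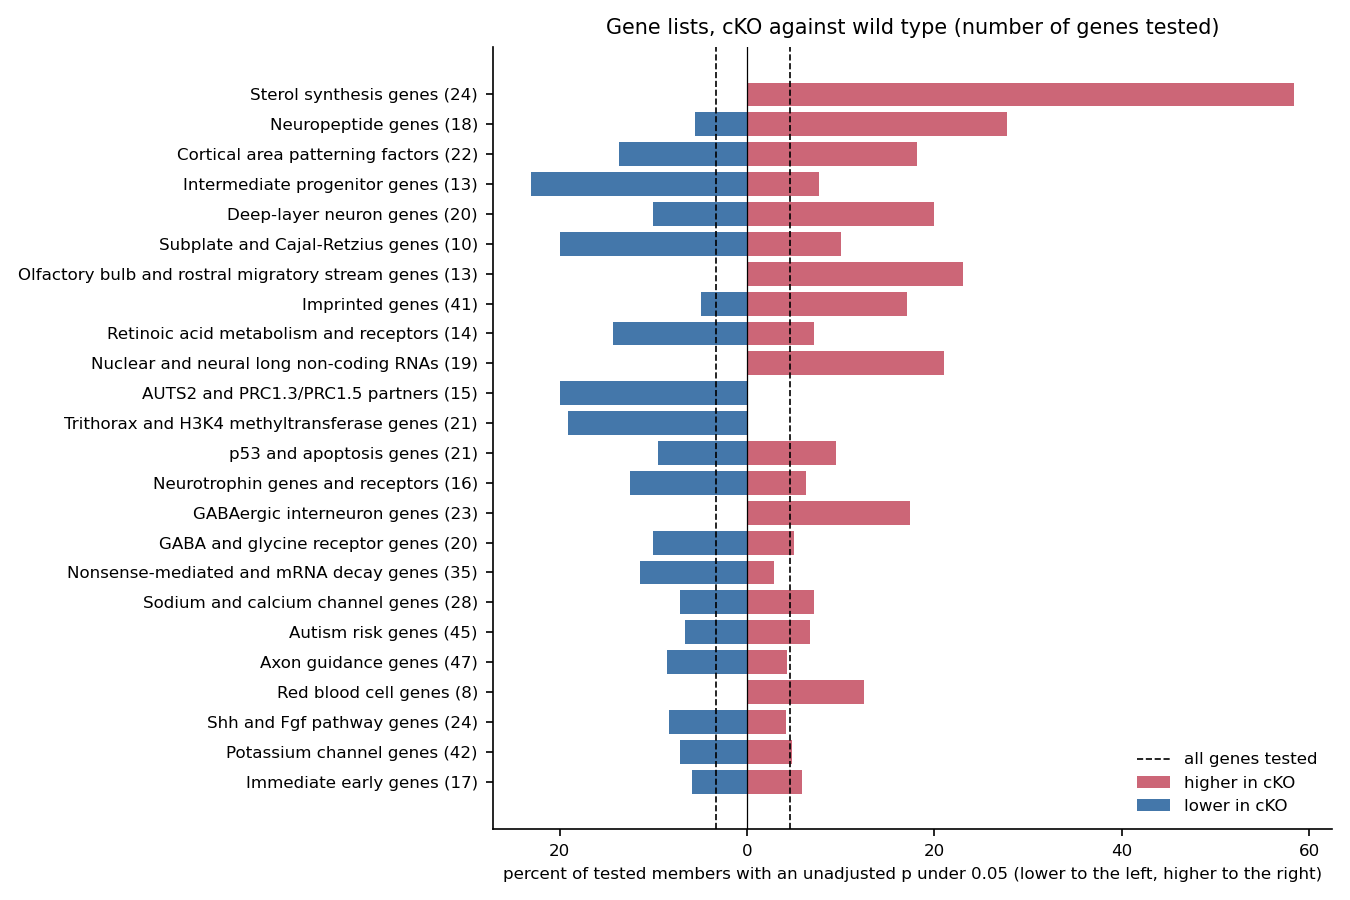
The 24 lists with the largest share of members at an unadjusted p under 0.05 (limma), with the number of genes tested in brackets. Bars to the right are members higher in the cKO and bars to the left members lower, as percent of the tested members, and dashed lines mark 4.57% and 3.34% of all genes. Sterol synthesis genes reach 58.3%, all to the right.

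Cells make cholesterol from acetyl-CoA by the mevalonate pathway, which leads to farnesyl diphosphate, and by the squalene branch, which ends in cholesterol. When sterol in the endoplasmic reticulum is low, SCAP escorts the SREBP factors to the Golgi, and they then switch on nearly all of these enzymes, while INSIG proteins hold them back. The newborn brain makes its own cholesterol for growing membranes, since lipoproteins do not cross the blood-brain barrier. All 24 tested sterol genes stood higher in the cKO, with a median log2 fold change of 0.287, against 50.4% of all genes higher and a median of 0.0013. No member passed the adjusted threshold, and in 2, Mvk and Insig1, the groups did not overlap (2.65% of all genes did so with the cKO higher).

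In the mevalonate arm 6 of 7 listed genes were tested and 5 had an unadjusted p under 0.05 (limma), with a median log2 of 0.344. Mvk, mevalonate kinase, stood at 12.1, 13.5, 14.7 and 13.1 FPKM in the wild type group against 17.8, 17.4, 18.7 and 16.3 FPKM in the cKO. Every cKO library was above every wild type library (log2 0.37, SE 0.08, unadjusted p = 0.000565, adjusted p = 0.425, limma). Idi1, which isomerises isopentenyl diphosphate, had the largest difference of the list, at 6.68, 6.26, 11.2 and 11.7 against 12.1, 14.7, 15.3 and 11.4 FPKM (log2 0.57). Its groups overlapped, because wild type 4 lay just above cKO 4 and wild type 1 and 2 lay far below both. Hmgcs1, HMG-CoA synthase, stood at 178, 192, 249 and 230 against 226, 283, 299 and 263 FPKM (log2 0.34). Pmvk, the next kinase, stood at 19.8, 21.2, 23.3 and 24.8 against 30.5, 24.7, 26.9 and 28.2 FPKM (0.30). In both genes some wild type values reached into the cKO range. Fdps, farnesyl diphosphate synthase, had the smallest difference of the arm (0.14), and Mvd was listed at 0 in all 8 libraries.

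All 12 listed genes of the squalene to cholesterol arm were tested, and 7 had an unadjusted p under 0.05 (limma), with a median log2 of 0.269 and a range of 0.14 to 0.40. Sqle, squalene epoxidase, a slow step of the branch, stood at 38.2, 38.9, 68.3 and 57.5 FPKM in the wild type group against 53.4, 71.2, 72.8 and 64.9 FPKM in the cKO (0.40). Fdft1, squalene synthase, stood at 35.7, 39.3, 57.8 and 49.6 against 52.7, 60.4, 64.0 and 53.6 FPKM (0.35). Cyp51, the lanosterol demethylase, stood at 30.3, 31.8, 48.3 and 41.1 against 44.1, 51.2, 52.7 and 42.1 FPKM (0.34). In each of the 3 wild type 1 and 2 were the lowest libraries and wild type 3 lay among the cKO libraries. The late reductase Dhcr7 had a log2 difference of 0.28, and Lss, Nsdhl and Sc5d, with 0.16, 0.18 and 0.14, did not reach an unadjusted p of 0.05.

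Of the 6 tested uptake and control genes 2 had an unadjusted p under 0.05 (limma). Insig1, a target and a brake of SREBP, stood at 21.4, 22.3, 25.6 and 24.1 against 32.1, 29.9, 32.8 and 26.8 FPKM, without overlap (log2 0.37, SE 0.08, unadjusted p = 0.000904, adjusted p = 0.517, limma). The genes of the SREBP machinery itself differed little, with log2 0.06 for Srebf1, 0.06 for Srebf2 and 0.02 for Scap, and each turned to -0.03 in at least 1 alternative, as Ebp of the squalene arm did to -0.06.

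The sterol difference was largest against wild type 1 and 2, the pair that stands apart. The summed FPKM of the 26 listed genes was 712, 764, 967 and 863 in wild type and 914, 1050, 1090 and 955 in the cKO, so wild type 1 and 2 lay lowest and wild type 3 was above cKO 1 and cKO 4. Wild type 1 and 2 were the 2 lowest libraries in 16 of the 24 genes (66.7%, against 15.1% of all genes tested). Against wild type 3 and 4 alone the cKO mean was higher in 21 of 24 genes (87.5%, against 50.5% of all genes). Without wild type 1 and 2 the median was 0.10 with 3 unadjusted p under 0.05 (limma), and without wild type 1, wild type 2 and cKO 1 it was 0.139 with 7. Leaving out wild type 1 gave 22 genes higher, a median of 0.235 and 7 such p-values, and leaving out wild type 2, cKO 2 or cKO 3 gave 8 each. Xist state as a covariate gave 23 genes higher, a median of 0.329 and 13 such p-values. Mvk and Insig1 kept log2 fold changes of 0.32 and 0.28 without wild type 1 and 2. What sets wild type 1 and 2 apart was not tested.

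**Figure D3:**
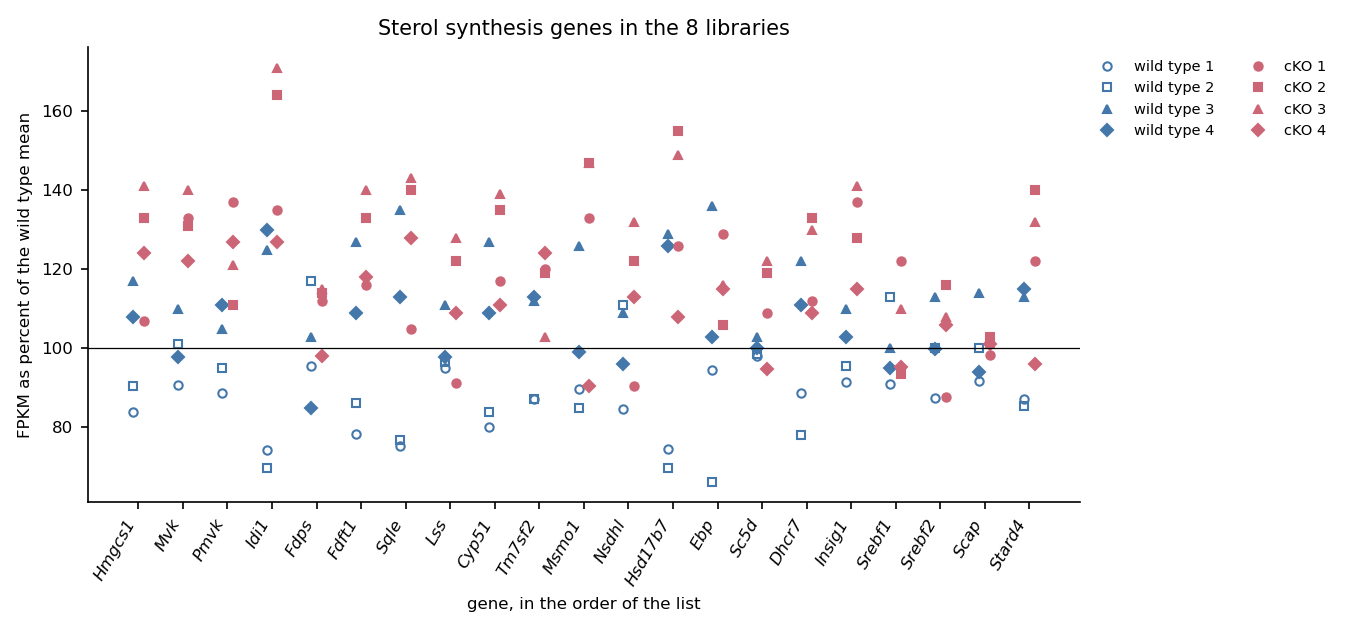
Of the tested sterol genes 21, in the order of the list, each library as a point, in percent of the gene's wild type mean. Open symbols are wild type 1 and 2, filled blue symbols wild type 3 and 4, and red symbols the cKO. The open symbols lie lowest for most genes, and for Mvk and Insig1 all red symbols lie above all blue ones.

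The start sites of some of these genes are shown because 2 kinds of letters known from such promoters were searched there: CACNCCAC, a core of the sterol regulatory element bound by SREBP, and the CCAAT box, bound by NF-Y, a partner of SREBP. The 4 windows all hold CCAAT, and CACNCCAC is in those of Hmgcs1 and Insig1 and not in the other two. Sequences are those of RefSeq on GRCm38.p6, the 250 bases before each start on the plus strand, or the whole gap where 2 genes start back to back. Mvk and Mmab, an enzyme of cobalamin metabolism, start 242 bases apart on chromosome 5 and point away from each other, 17.0 Mb from Auts2. Mmab stood at 7.18, 6.61, 6.83 and 5.78 FPKM in the wild type group against 8.99, 9.35, 9.60 and 9.11 FPKM in the cKO. Both sides of this gap thus stood higher without overlap, as 2.65% of all genes did. For Mmab the log2 difference was 0.44 (adjusted p = 0.425, limma). Both genes were among those named for a high test statistic, so the pair was picked with its values known. Whether the gap they share has a part in this was not tested. Capitals mark CCAAT on either strand (ATTGG on the printed one) and CACNCCAC on either strand. The places are chr5:114444028-114444268, chr13:119690101-119690350, chr5:28071162-28071411 and chr13:8885356-8885605, in the order printed.
Mvk-Mmab: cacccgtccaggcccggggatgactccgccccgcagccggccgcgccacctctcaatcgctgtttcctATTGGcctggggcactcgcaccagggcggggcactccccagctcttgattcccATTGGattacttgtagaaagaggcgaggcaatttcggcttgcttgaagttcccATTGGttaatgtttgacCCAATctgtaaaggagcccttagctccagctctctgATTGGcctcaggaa
Hmgcs1: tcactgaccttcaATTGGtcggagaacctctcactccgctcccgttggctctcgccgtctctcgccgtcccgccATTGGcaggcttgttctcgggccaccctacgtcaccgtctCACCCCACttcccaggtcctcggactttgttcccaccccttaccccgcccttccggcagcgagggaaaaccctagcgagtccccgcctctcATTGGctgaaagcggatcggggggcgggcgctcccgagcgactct
Insig1: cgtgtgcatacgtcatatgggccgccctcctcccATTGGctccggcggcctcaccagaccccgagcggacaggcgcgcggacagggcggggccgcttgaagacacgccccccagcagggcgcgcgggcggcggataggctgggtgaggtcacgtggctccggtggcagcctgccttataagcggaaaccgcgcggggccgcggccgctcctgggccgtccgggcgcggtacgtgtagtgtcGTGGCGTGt
Idi1: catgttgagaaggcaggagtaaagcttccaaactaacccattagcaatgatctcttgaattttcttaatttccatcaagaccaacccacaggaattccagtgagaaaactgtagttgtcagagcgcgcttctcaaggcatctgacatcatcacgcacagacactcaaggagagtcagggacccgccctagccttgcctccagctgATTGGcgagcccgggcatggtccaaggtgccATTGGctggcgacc

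A window was found for 17 of the 24 tested sterol genes. CCAAT was present on either strand in 16 of them (94.1%), against 40.7% of 9632 tested genes with a window. The GC box core GGGCGG was present in 16 (94.1%, against 65.9%) and CACNCCAC in 2, Hmgcs1 and Insig1 (11.8%, against 6.81%). The gap between Mvk and Mmab holds 5 CCAAT matches. A match is a run of letters and no measured site, and the windows hold no data of this study on binding.

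Neuropeptide genes came next in their share of small p-values, in both directions. Penk, the enkephalin precursor, abundant in striatal neurons and present in some cortical interneurons, stood at 2.13, 2.45, 2.38 and 3.03 FPKM in the wild type group against 4.27, 7.83, 6.27 and 9.69 FPKM in the cKO. Every cKO library was above every wild type library (log2 1.15, SE 0.18, adjusted p = 0.0867, limma). Penk passed without cKO 1 (adjusted p = 0.00845, limma) and without wild type 1, wild type 2 and cKO 1 (0.0331), but without wild type 1 and 2 its adjusted p was 1.0 (log2 1.07). Neuropeptides on the higher side with a small p then numbered 2 in place of 5. With Xist state as a covariate they numbered 4, with 1 on the lower side. Sst, the peptide of a main interneuron class, stood at 53.4, 42.5, 55.9 and 67.4 against 155, 60.8, 75.6 and 95.7 FPKM (log2 0.74, adjusted p = 0.628, limma), with cKO 1 far above the rest and cKO 2 below wild type 4. Nts, neurotensin, stood at 3.51, 2.74, 2.11 and 3.41 against 7.30, 3.82, 3.88 and 8.02 FPKM (0.73), without overlap. Cck, a peptide of interneurons and of excitatory neurons, was on the other side, at 28.4, 30.7, 24.3 and 26.3 against 22.3, 17.1, 20.5 and 20.2 FPKM (log2 -0.44, adjusted p = 0.425, limma), also without overlap.

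Markers of GABAergic interneurons, which the Cre does not reach, were read beside these peptides. Of 23 tested interneuron genes 14 stood higher, with a median log2 of 0.049, and 4 had an unadjusted p under 0.05 (limma), all higher: Nr2f2, Sst, Gad1 and Maf. That is 17.4%, against 4.57% higher among all genes, of which 50.4% stood higher at any p. Without wild type 1 and 2 it was 1 gene, and without wild type 1, wild type 2 and cKO 1 there were 2 higher and 3 lower. Xist state as a covariate gave 5 higher and 0 lower, with a list median of 0.126. Gad1, which makes GABA, stood at 22.8, 17.5, 26.9 and 26.5 FPKM in the wild type group against 35.2, 28.3, 26.9 and 30.2 FPKM in the cKO (log2 0.36). Lhx6, the factor of medial eminence interneurons, stood at 27.5 to 29.5 FPKM in wild type and at 27.3 to 31.6 FPKM in the cKO. Dlx1, common to all of them, stood at 35 to 41.4 FPKM in wild type, at 59.8 FPKM in cKO 1 and at 29.2 to 35.1 FPKM in the other cKO libraries. The summed level of the list was 406 to 432 FPKM in the wild type group against 435 to 569 FPKM in the cKO. Without Sst it was 361 to 368 FPKM against 361 to 414 FPKM, with overlap and cKO 1 highest. Its part in the difference of Sst and Gad1 was not tested.

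Striatal tissue next to the dissection would carry Penk too. Of 14 tested striatal genes only Penk had an unadjusted p under 0.05 (limma). The receptor Drd1 stood at 3.24 to 4.63 FPKM in the wild type group against 2.07, 4.64, 4.44 and 3.52 FPKM in the cKO, and Drd2, which shares a class of striatal neurons with Penk, at 0.715 to 1.06 and 0.543 to 1.24 FPKM. Ppp1r1b stood at 26.7 to 36.0 and 28.1 to 37.8 FPKM. cKO 4 was the highest library for Penk, and also for Drd2 and Ppp1r1b. The summed level of the 20 genes was 252 to 265 FPKM in the wild type group against 249 to 287 FPKM in the cKO. Olfactory bulb and migratory stream genes had 10 of 13 higher with a median of 0.213, which was 0.073 without cKO 1. Tshz2 led that list, at 3.84, 3.14, 3.4 and 3.77 against 5.21, 5.77, 6.67 and 7.50 FPKM (log2 0.68, adjusted p = 0.135, limma). The summed level of the 18 listed genes was 85.6, 66.6, 69.6 and 72.6 FPKM in wild type. In the cKO it was 108, 80.0, 79.3 and 82.7 FPKM, with cKO 1 highest. The bulb markers Th, Tbx21 and Omp were among the 5 of these 18 genes with means under 1 FPKM. The part of either tissue in these values was not tested.

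Genes that pattern the cortex into areas and layers were spread over both directions. Among 22 area factors 10 stood higher, with a median log2 of -0.068. Nr2f2, high in caudal cortex and in interneurons of the caudal eminence, stood at 5.31, 5.35, 4.81 and 5.32 FPKM in the wild type group against 5.87, 6.68, 6.98 and 7.43 FPKM in the cKO group (log2 0.32, adjusted p = 0.628, limma), without overlap. Emx1, a factor of the dorsal forebrain, stood lower (log2 -0.33, with overlap). Only the cKO carries a Cre expressed from Emx1, so the part of that allele in this level cannot be told apart. Without wild type 1 and 2, 1 of the 22 genes had an unadjusted p under 0.05 (limma), and without wild type 1, wild type 2 and cKO 1 there were 5 higher and 1 lower.

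Deep-layer genes also stood on both sides. Etv1, a factor of layer 5 neurons that is also in the olfactory list, stood at 9.83 to 12.4 FPKM in wild type and at 13.1 to 14.5 FPKM in the cKO, without overlap. Thsd7a, an adhesion protein, stood at 3.30, 1.98, 3.64 and 5.15 FPKM in the wild type group against 5.68, 6.07, 6.63 and 7.16 FPKM in the cKO group (log2 0.75, adjusted p = 0.547, limma), and Pcp4, a calmodulin regulator of layer 5 and 6 neurons, at 27.3 to 31.1 and 30.6 to 48.9 FPKM (0.40). The first pair of groups did not overlap and the second did. Ntsr1, the neurotensin receptor of corticothalamic neurons, stood at 12.3, 15.6, 14.0 and 12.7 against 7.59, 11, 12.1 and 9.30 FPKM (-0.43), and Wnt7b at 48.1, 66.6, 34.1 and 34.3 against 27.6, 30.0, 32.3 and 33.5 FPKM (-0.50), both without overlap. In Wnt7b wild type 3 and 4 lay close to cKO 4, and wild type 1 and 2 far above. Upper-layer genes stood lower in 17 of 19 (median -0.125), but only Lmo4, on the higher side, and Rorb, on the lower side, had an unadjusted p under 0.05 (limma). Without cKO 1 the median was -0.056, and without wild type 1, wild type 2 and cKO 1 it was 0.035, with 15 of 19 higher. With Xist state as a covariate the median was -0.142, with 2 of 19 higher.

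Among subplate and Cajal-Retzius genes 1 had a small p on the higher side and 2 on the lower. Reln, the glycoprotein that Cajal-Retzius cells secrete to order the layers, stood at 47.6, 49.2, 46.0 and 43.2 FPKM in the wild type group against 67.0, 54.0, 52.6 and 51.0 FPKM in the cKO group, without overlap (log2 0.26, adjusted p = 0.628, limma). It is also made by interneurons. The subplate genes Ccn2 and Nxph4 were on the other side. Ccn2 stood at 5.20, 5.27, 4.65 and 4.91 against 3.73, 2.30, 4.61 and 3.29 FPKM (-0.45), and Nxph4 at 4.26 to 7.11 and 3.04 to 4.57 FPKM (-0.36). Of intermediate progenitor genes, dividing precursors of excitatory neurons, 12 of 13 stood lower, 3 of them with an unadjusted p under 0.05 (limma): Neurog2, Rhbdl3 and Sstr2, with 1 on the higher side, against 3.34% lower among all genes. Sstr2 stood at 15.1, 19.3, 9.65 and 7.74 against 8.25, 8.67, 7.90 and 7.05 FPKM, with wild type 1 and 2 far above the rest. Lower genes with such a p numbered 2 without wild type 1 or without wild type 2, and 1 without both, and the median of -0.108 was -0.056 without cKO 3.

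Ndn was the only called gene among 41 tested imprinted genes, of which 23 stood higher. On chromosome 12 the maternally expressed non-coding RNAs Rian and Meg3 stood higher together. Rian stood at 359, 348, 432 and 476 FPKM in the wild type group against 515, 493, 520 and 525 FPKM in the cKO group, without overlap (log2 0.36, adjusted p = 0.614, limma). Meg3 stood at 331, 305, 355 and 426 against 459, 394, 418 and 429 FPKM (0.27), with overlap through wild type 4. The paternally expressed Peg10 and Plagl1 stood lower, at 4.82 to 7.02 against 3.66 to 5.0 FPKM (-0.37) and 8.29 to 12.4 against 7.17 to 8.45 FPKM (-0.33), both with overlap. Over the 19 tested nuclear and neural long non-coding RNAs, 15 stood higher with a median of 0.172. That median was 0.071 without wild type 2 and 0.015 without wild type 1 and 2.

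The partners of AUTS2 gave small differences. Of 15 genes of its polycomb complexes, Auts2 included, 11 stood lower, and besides Auts2 the unadjusted p was under 0.05 (limma) for Csnk2a2, a catalytic subunit of casein kinase 2, and Pcgf5, the subunit that defines one of the complexes. Csnk2a2 stood at 28.0, 27.3, 30.0 and 22.6 FPKM in the wild type group against 20.5, 24.1, 22.3 and 23.1 FPKM in the cKO group (log2 -0.25, adjusted p = 0.628, limma), overlapping through wild type 4. Pcgf5 stood near 1 FPKM (-0.28). The median of the list was -0.095, and 0.012 without wild type 1, wild type 2 and cKO 1. Trithorax and H3K4 methyltransferase genes, which mostly act on an activating histone mark, stood lower in 16 of 21 with a median of -0.157, among them Kdm5a, a demethylase of that mark, Setd1a, Wdr5 and Kmt2d with an unadjusted p under 0.05 (limma). That is 19% of the list, against 3.34% lower among all genes. It became 1 lower gene without wild type 1, 0 lower and 1 higher without wild type 2, and 2 lower without cKO 4. Without cKO 1 the median was -0.043, and without the 3 libraries that stand apart it was 0.001. Regulators of Rac1 and actin had 1 higher and 1 lower of 34 with an unadjusted p under 0.05 (limma), 5.88% against 7.91% of all genes. The lower one was Prex1, a Rac exchange factor, at 16 to 23.9 and 13.8 to 16 FPKM (-0.38). PRC2 and canonical PRC1 subunits had 1 of 21.

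Other single genes with high test statistics are named as values, since none passed. On the higher side stood Kirrel3, a synaptic adhesion protein linked to autism, at 16.1, 17.3, 15.6 and 16.3 FPKM in the wild type group against 20.2, 20.4, 20.9 and 21.4 FPKM in the cKO group (log2 0.33, SE 0.07, adjusted p = 0.425, limma). The assembly factor of respiratory complex I Ndufaf2 stood at 19.1 to 21.3 and 23.9 to 26.7 FPKM (0.34), and Rgs3, which ends G-protein signals, at 2.94 to 4.49 and 5.33 to 6.52 FPKM (0.53). Lower were Ryr1, the calcium release channel, at 6.28, 6.86, 5.35 and 6.56 against 3.65, 4.57, 4.55 and 4.04 FPKM (-0.48), and Cxxc5, a Wnt and Bmp pathway regulator, at 16.5 to 18.1 and 12.6 to 14.3 FPKM (-0.35). The Hippo kinase Lats2 stood at 3.54 to 3.84 and 2.45 to 2.61 FPKM (-0.39), and Nab2, a co-repressor of Egr factors, at 3.11 to 4.23 and 1.96 to 2.91 FPKM (-0.53). The unconventional myosin Myo10 stood at 6.04 to 6.56 and 3.93 to 5.21 FPKM (-0.41), and the protocadherin Pcdh20 at 3.08 to 4.47 and 2.13 to 2.71 FPKM (-0.54). In each of these 9 genes, chosen for their test statistic, the groups did not overlap, as in 4.41% of all genes (2.65% with the cKO higher and 1.76% with it lower).

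Markers of cells outside the neural lineage were similar in the groups. The summed level of microglia genes was 44.3 to 58.0 FPKM in the wild type group against 46.8 to 61.3 FPKM in the cKO, of endothelial and pericyte genes 114 to 129 and 115 to 129 FPKM, and of meningeal genes 88.4 to 104 and 85.8 to 93.7 FPKM. Of the meningeal and choroid plexus lists 17 of 23 and 11 of 14 genes had means under 1 FPKM, Ttr and the fibrillar collagens among them. Red blood cell genes summed to 151 to 164 and 152 to 189 FPKM. Astrocyte genes, partly of the Emx1 lineage, summed to 388 to 465 and 405 to 458 FPKM, and oligodendrocyte genes to 68.9 to 94.0 and 71.7 to 93.0 FPKM.

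At the level of transcripts, Ndn-201 was the only call among 26722 tested (0.00374%; adjusted p = 0.0415, limma), and 5.66% had an unadjusted p under 0.05. Ndn-201 lost this call when wild type 1, wild type 2, wild type 3, wild type 4, cKO 2 or cKO 4 was left out. The call was lost too with median-ratio rescaling, the replicate block or the Xist covariate. In 3.55% the groups did not overlap. Rnf214-205, a coding form of a RING finger gene, stood at 1.2, 1.2, 1.5 and 1.3 FPKM in the wild type group against 2.92, 2.66, 2.39 and 2.68 FPKM in the cKO, without overlap. Gar1-206, from a gene for an H/ACA ribonucleoprotein that guides pseudouridine in ribosomal RNA, stood at 5.29, 5.54, 5.75 and 5.38 against 3.10, 3.64, 2.71 and 3.30 FPKM, also apart. Gpsm1-204 stood at 0 to 0.917 and 1.62 to 5.95 FPKM.

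Transcript shares, the percent of a gene's FPKM that a transcript takes in a library, were tested for 26051 transcripts of 8677 genes. None passed (0%; limma, smallest adjusted p = 0.808), and 1222 had an unadjusted p under 0.05 (4.69%), 2.43% higher and 2.26% lower in the cKO, in 964 genes. In 2.76% of all shares tested the groups did not overlap. The genes with the smallest p are therefore given as values. For 10 genes named by the smallest p, and for Slc1a4, which was added after its values were seen, the leading transcript kept its direction and an unadjusted p under 0.05 (limma) in each of the 16 or 17 fits run for it. These transcripts were chosen from the values of the same libraries, so this could hardly come out otherwise and adds no support. Their adjusted p was never below 0.141 in these fits (limma).

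Arpp19 encodes an inhibitor of the phosphatase PP2A that works in mitosis and as a cyclic AMP target in neurons. Its form Arpp19-209 took 4.40%, 0.258%, 0.0528% and 0.0275% of the gene in wild type and 41.0%, 28.7%, 27.1% and 10.5% in the cKO (unadjusted p = 0.000136, adjusted p = 0.808, limma). Arpp19-205 took 64.8%, 69.3%, 81.1% and 73.2% against 35.8%, 47.9%, 48.1% and 60.3%, so the groups lay apart in both. The 2 forms share every exon boundary but the 3' end, where Arpp19-209 runs 19 bases further, to base 75060313 of chromosome 9 in place of 75060294. Slc1a4, a transporter of alanine, serine and cysteine, had a like pair: Slc1a4-201 took 2.14%, 11.1%, 23.3% and 11.1% in wild type and 37.1%, 32.7%, 49.7% and 58.2% in the cKO, and Slc1a4-202, which differs from it in 54 bases at the ends, the rest. The bases that tell such pairs apart are few, and the reads over them are not in the tables.

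Pafah1b3 encodes a catalytic subunit of the acetylhydrolase that binds LIS1, a protein of neuronal migration. Pafah1b3-202 stood at 5.88, 8.91, 6.72 and 9.71 FPKM in the wild type group against 15.4, 17.9, 14.9 and 15.4 FPKM in the cKO. Its share went from 6.88%, 9.50%, 7.03% and 9.44% to 13.3%, 17.6%, 15.1% and 15.3%, without overlap, while Pafah1b3-201 held 59.8% to 65.1% and 55.5% to 62.1%. It has 31 bases found in none of the other forms described. Hnrnpr encodes an hnRNP protein of axonal RNA transport. Hnrnpr-204 took 20.7%, 19.4%, 21.1% and 20.4% in wild type and 15.9%, 15.1%, 14.1% and 15.1% in the cKO (20.4% ± 0.7 and 15.1% ± 0.727, SD, n = 4 each). Among the 44 SR protein and hnRNP genes themselves no level differed at an unadjusted p under 0.05 (limma).

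Rnaseh2b encodes a subunit of ribonuclease H2, which removes ribonucleotides from DNA. Rnaseh2b-204, annotated as a target of nonsense-mediated decay, took 22.2%, 19.4%, 18.9% and 21.3% in wild type and 0.212%, 0.905%, 8.70% and 7.58% in the cKO. The coding form Rnaseh2b-201 stood at 8.05 to 11.4 FPKM in wild type and at 7.64 to 11.8 FPKM in the cKO, with overlap. Of the rest, Krcc1-201 went from a mean share of 1.74% to 27.9% and Marc2-206 from 0.973% to 11.2%. Ltv1-202 went from 12.5% to 0.762%, Whrn-201 from 10.5% to 0.0289%, and Alg3-204 from 7.28% to 19.9% in wild type to a listed 0 in all cKO libraries. These 5 were forms of at most 2.22 FPKM in any library, and Whrn-201 differs from Whrn-206 in 3 bases.

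**Figure D4:**
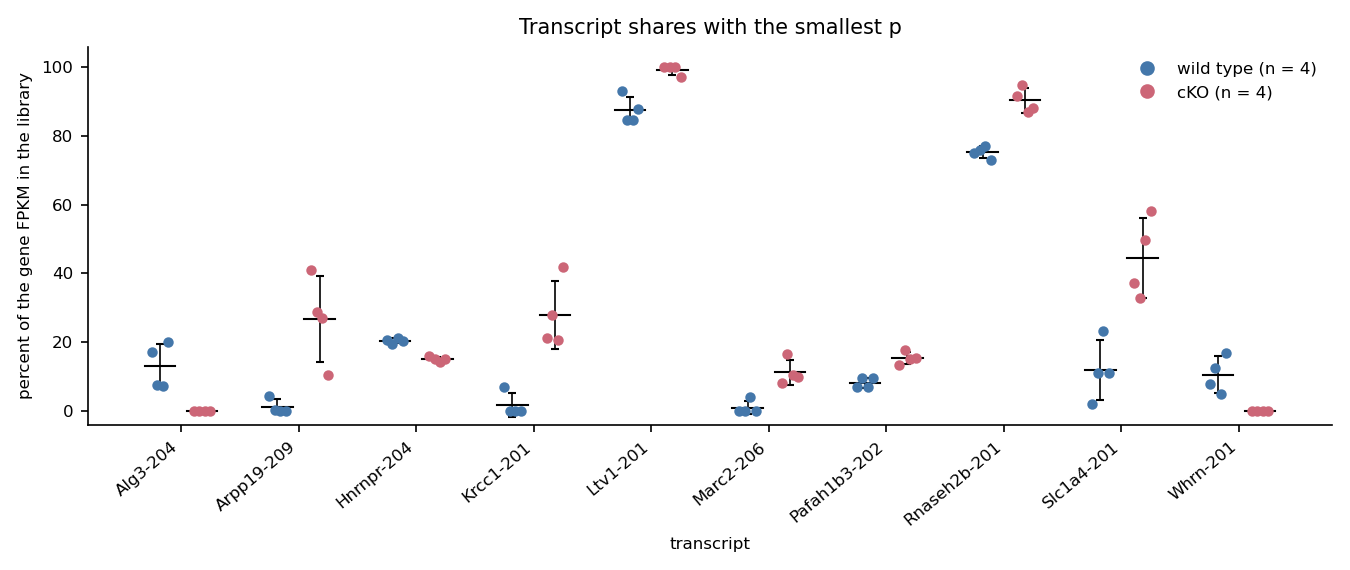
Shares of 10 transcripts, each the one of smallest p in its gene, in percent of the gene's FPKM, with 4 wild type and 4 cKO libraries as points, the mean as a line and the SD as a bar. Groups do not overlap in any of them. Arpp19-209 runs from 10.5% to 41.0% within the cKO.

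By annotated class, shares were not tilted strongly. Of 4978 retained intron shares tested, 63 were higher and 87 lower in the cKO with an unadjusted p under 0.05 (limma), and 44.4% stood higher, against 50% of all shares. Of 16730 protein coding shares 468 were higher and 397 lower, and 51.9% stood higher. For forms marked for nonsense-mediated decay these were 37 and 34 of 1538. Summed over each library, retained intron transcripts took 5.864%, 5.65%, 5.777% and 5.877% of all FPKM in wild type and 5.651%, 5.72%, 5.628% and 5.607% in the cKO. The groups overlapped, with an exact permutation p = 0.0857 (two-sided, adjusted p = 0.257 over 6 measures), where 4 libraries against 4 cannot go below 0.0286. Protein coding transcripts took 87.42% ± 0.187 and 87.58% ± 0.0784 (SD, n = 4 each; exact permutation p = 0.2). Long non-coding genes took 1.537%, 1.509%, 1.555% and 1.659% against 1.704%, 1.641%, 1.714% and 1.606% (exact permutation p = 0.0857, adjusted p = 0.257). Xist, high in 1 wild type and 3 cKO libraries, is part of that class, and without it the means were 1.549% and 1.616% (exact permutation p = 0.2). The median abundance-weighted transcript length was 2731 ± 9.79 bases in wild type and 2730 ± 3.87 bases in the cKO (SD, n = 4 each; exact permutation p = 0.914).

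**Figure D5:**
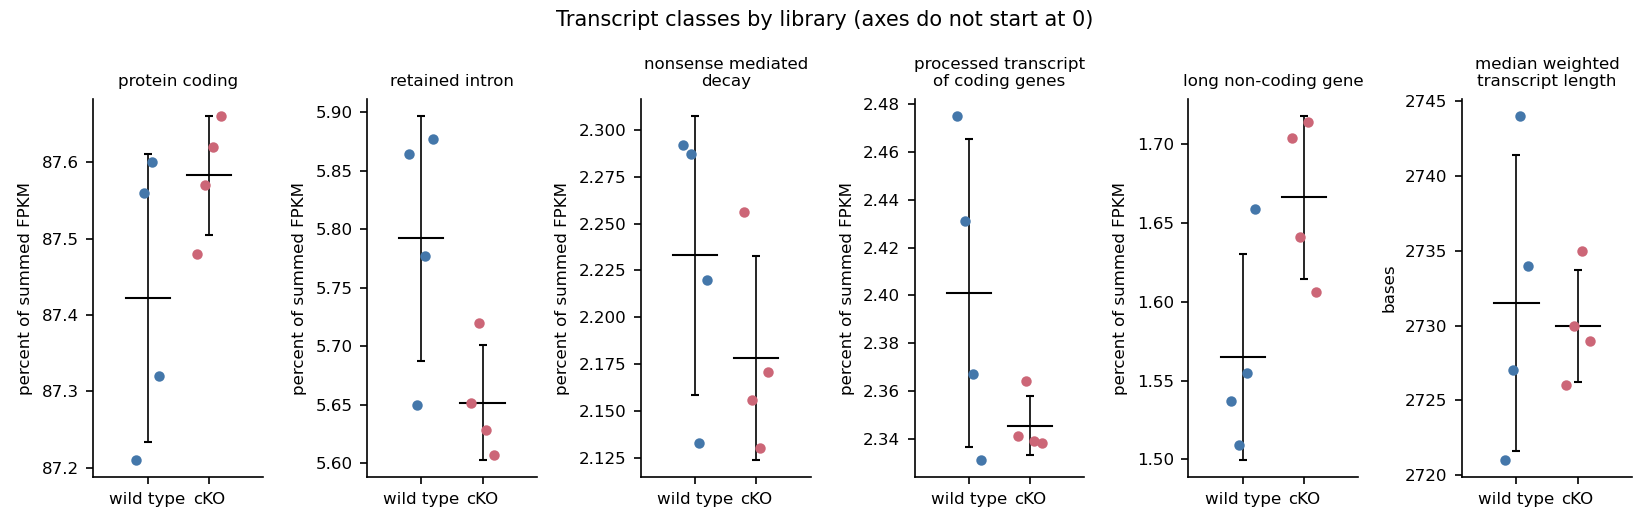
The share of summed FPKM in 5 transcript classes and the median abundance-weighted transcript length, by library, with the mean as a line and the SD as a bar. Axes do not start at 0, and all groups overlap. Retained intron transcripts lie lower and long non-coding genes higher in most cKO libraries, by 0.14 and 0.102 percentage points of the mean.

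The genes that process and decay RNA were read beside these shares. Neuronal splicing regulators had 2 of 27 with an unadjusted p under 0.05 (limma), Elavl2 and Elavl4, both higher (7.41%, against 7.91% of all genes), and cleavage and polyadenylation genes 1 of 22, Wdr33, lower (4.55%). Nonsense-mediated and general decay genes had 1 higher and 4 lower of 35 (14.3%), with a median of -0.063. With wild type 1, wild type 2, cKO 1, cKO 3 or cKO 4 left out 1 or 2 were lower, and the median was 0.002 without wild type 1 and 2. Exosc3, a subunit of the RNA exosome, stood at 8.60, 7.88, 7.50 and 6.31 FPKM in the wild type group against 5.65, 5.58, 5.62 and 5.52 FPKM in the cKO, without overlap (log2 -0.37). Xrn2, the nuclear exonuclease that ends transcription, was on the higher side, at 38.7 to 45.6 and 46.0 to 47.5 FPKM.

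The pull-down libraries of the series, from cortex of pooled neonates, hold the same genes on their own scale and were not tested. Auts2 RNA stood at 275 and 275 FPKM with the AUTS2 antibody and at 234 and 239 FPKM with IgG. Ndn stood at 43.2 and 25.0 against 33.9 and 21.3 FPKM, and Hmgcs1 at 58.0 and 47.5 against 77.8 and 63.0 FPKM. For Ndn the replicates of one antibody differed as much as the antibodies did. Within each replicate number the AUTS2 antibody value of Ndn lay above the IgG value. Both AUTS2 antibody values of Hmgcs1 lay below both IgG values.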

How the data were processed

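Frontal cortex RNA of 4 wild type and 4 cKO libraries was read from the authors' table of FPKM per transcript. Per the submitters' processing notes, STAR 2.5, SAMtools and Cuffdiff 2.2.1 were used with GRCm38.p4/mm10, and GENCODE vM14 is named per the file headers. The sources used here do not give the strand setting. No counts were used, so depth is unknown. One column name (cKO 4) differs from its label in the animal code and was matched by its library number.

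Of 128508 transcripts, 127975 were matched to symbols in GENCODE by identifier, holding at least 99.733% of FPKM, and 533 were not. FPKM were summed per symbol. Genes and transcripts with a mean of at least 1 FPKM were tested with limma (R) on log2(FPKM + 1), with trend and robust options, two-sided, Benjamini-Hochberg, threshold 0.05. Fold changes are on that scale, which makes those of low genes too small. Shares from 5% to 95% were tested with limma after an arcsine square root. Class shares and length were compared by exact permutation over libraries. Scripts were tested on simulated data (Python 3.11.15, pandas 2.3.3, scipy 1.17.1).

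Named were Auts2, Emx1, called features, the 10 highest and 10 lowest t among other genes, the 6 highest and 6 lowest among transcripts, the 10 genes of smallest share p, and up to 4 members of smallest p in the lists described. Symbols of the Gm and Rik kind were left out. Members and lists were chosen with earlier results of these data known. Replicate numbers did not pair the libraries. Alternatives were other pseudocounts, filters, scalings, share scales and variance models, a replicate block, an Xist covariate, leaving out each library, and leaving out wild type 1 and 2. Leaving out these with cKO 1, and Xist from its class, were chosen after seeing the data. Some genes of the lists are counted but not reported by name here.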

Additional observations from a re-analysis of the deposited data

Results flagged for a closer look

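Of 86 groups of 4 libraries checked, 3 held a library far from its others, where chance alone gives about 1 in 20. Lats2 stood at 3.84 FPKM in wild type 1, against 3.54 to 3.59 FPKM in the other wild type libraries. Lyplal1, a lysophospholipase-like protein, stood at 2.11 FPKM in wild type 3, against 1.24 to 1.38 FPKM in the other 3. Processed transcripts of coding genes took 2.36% of FPKM in cKO 2, against 2.338% to 2.341% in the other cKO libraries.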

How the results depend on the processing

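The 3 called genes became 1 (Ndn) with no filter, with no trend, or with Xist state as a covariate, and 0 without wild type 1 and 2 (limma, 352 genes at an unadjusted p under 0.05). Leaving out 1 library gave 1 to 3. The count of called transcripts, 1, became 0 with median-ratio rescaling, with the replicate block, with the Xist covariate, and without wild type 1, wild type 2 and cKO 1. Leaving out 1 library gave 0 to 2, the second being Klhl22-201 without cKO 3. Without cKO 4 the call was Ppp1cc-210, and Ndn-201 was not called. Klhl22-201 stood at 0.00237 FPKM in cKO 3, the library left out, and at 3.72 to 8.71 FPKM in the other cKO libraries. Ppp1cc-210 stood at 0 FPKM in cKO 4, the library left out, and at 7.32 to 7.94 FPKM in the other cKO libraries. Called shares, 0, became 1 without cKO 4 (Ppp1cc-210), a range of 0 to 1. The length difference of -1.08 bases ran from -4.5 to 3.05 when 1 library was left out, reaching 3.05 when wild type 3 was absent and 0.315 when cKO 1 was. The cause was not tested. For 24 genes (the called ones, those of highest and lowest t, and Emx1) 423 values over the alternatives of that test kept their direction and their side of the threshold, 21 lost a call in the same direction, 4 gained one (Penk 3 times, Cyp26b1 once with the block), and none changed sign past the threshold.

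Libraries of the same replicate number deviated together with r of 0.176, 0.017, -0.039 and 0.066, and not every library correlated best with its own number. The fit with that block called 4 genes (Auts2, Cyp26b1, Ndn and Penk), 0 transcripts and 0 shares. The tables give no counts, so counting error is not known.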
